A study of Mus musculus with 9 samples.

Results

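The 9 genes described here are the mast cell proteases and receptors Cpa3, Cma1, Mcpt4, Tpsb2, Kit, Hdc, Fcer1a, Kitl and Hpgds. They were taken as every non-control probe of the array whose deposited gene name was one of these 9, which gave 10 probes of 55681, with 2 for Tpsb2 and 1 for each other gene. All 10 probes passed the filter on dim probes, so all 9 genes were among the 16508 genes tested. Expression was measured in the abdominal aorta of mice of the uMT genotype, which lack B cells, on the C57BL/6 strain. The study addressed how the aorta responds to an aneurysm-inducing stimulus without B cells, and what injected antibody changes. In the CaCl2 + IgG group, 0.5 M CaCl2 was applied around the aorta and polyclonal mouse IgG was injected into the peritoneum. The CaCl2 group had the same application without IgG, and both were sampled on day 7. The sham group had physiological saline around the aorta in place of CaCl2, and the sources used here do not give its day of sampling. All 3 groups carried the uMT genotype, so no group with B cells was compared. Each group had 3 samples, 1 array each, and the sources used here give no age, sex or IgG dose.

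Mast cells are tissue-resident cells that settle around vessels, in the arterial adventitia and in the fat beside it. They store tryptases, chymases and carboxypeptidase A3 in granules, bound to heparin on the proteoglycan serglycin, together with histamine made by Hdc. Kit, the receptor for stem cell factor (Kitl), keeps them alive, and the high-affinity IgE receptor, whose ligand-binding chain is Fcer1a, triggers granule release through the kinases Lyn and Syk. Mast cell proteases are known for cutting matrix proteins and activating other proteinases in the vessel wall.

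Levels are given as log2 signal relative to the 75th percentile of the array, so 0 is that percentile itself and a step of 1 is a doubling. Levels of different probes cannot be set against each other. The share of probes well above background ran from 54.9% to 59.9% per array, with 0 probes saturated. Arrays of the same group correlated at 0.957 to 0.990 across genes. Replicate 3 of the sham group was hybridised on slide 2, and the other 8 arrays on slide 1. On slide 1 the CaCl2 arrays lay in row 1 and both sham arrays in row 2, so slide row and this comparison cannot be told apart there. Sham replicate 3 lay in row 1 of slide 2. A fit with slide row as a block thus rests on that array and the CaCl2 + IgG arrays, and mixes row with slide. The CaCl2 + IgG replicate 3 array stood apart from the rest on the second principal component, at -74.7 against 0.55 to 15.9 for the other 8. Nothing in the labels says that samples of a group came from separate animals, and p-values measure only the spread between these samples.

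On day 7 after CaCl2, most of these transcripts were lower than in sham aorta: the granule proteases Mcpt4, Cpa3 and Cma1, the receptors Kit and Fcer1a, and the Kit ligand Kitl. Of the 9 genes, 6 were called lower in CaCl2 than in sham, beside 19% of all genes tested. One gene, Hpgds, was called higher, beside 17.4% of all genes, and Tpsb2 and Hdc were not called. The CaCl2 and sham arrays did not overlap in 7 of the 9 genes, beside 56.6% of all genes. The median log2 change of the 9 was -1.36, and that of all 16508 genes was -0.08. Every call here is an adjusted p under 0.05 from limma, with Benjamini-Hochberg adjustment over all genes. In bulk tissue, fewer mast cells, less RNA per mast cell and more RNA from other cells cannot be told apart. The count was 7 of 9 without sham replicate 3, the array on the other slide, and 4 of 9 under median scaling. It was 3 of 9 with slide row as a block, and 4 of 9 without CaCl2 replicate 1 or without CaCl2 replicate 2.

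**Figure D1:**
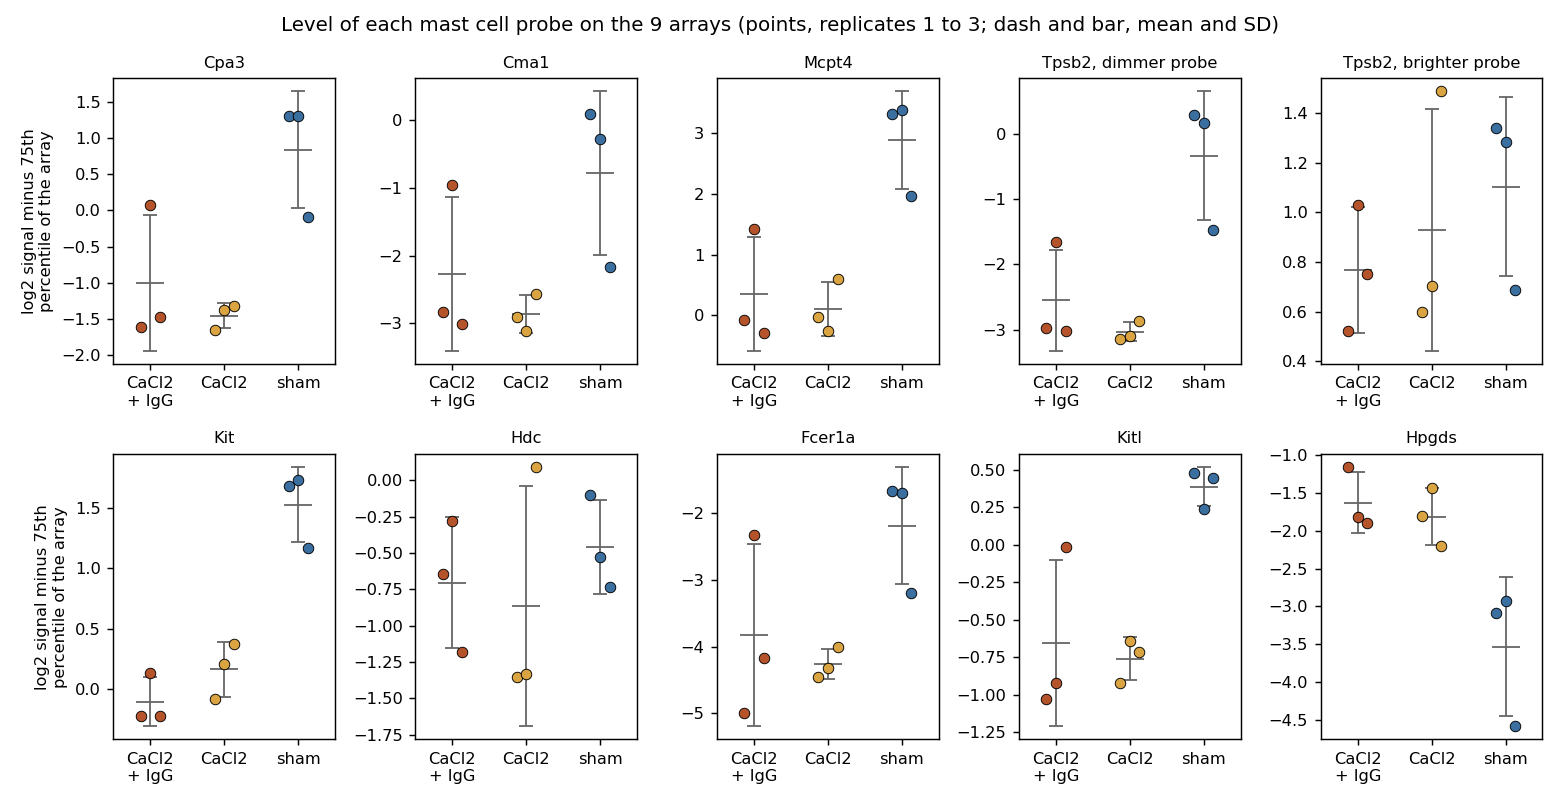
Level of the 10 probes (log2 signal minus the 75th percentile of the array, y axis) on the 3 arrays of the CaCl2 + IgG, CaCl2 and sham groups, with the mean and SD as a dash and bar (n = 3). In Cpa3, Mcpt4 and Kit the 3 sham points lie above all 3 CaCl2 points, while sham replicate 3 lies below the other sham arrays and CaCl2 + IgG replicate 2 above the other arrays of its group. Of the 3 CaCl2 + IgG arrays 1 held Fcer1a well above background, and of the 3 sham arrays 2 held Hpgds so.

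Mcpt4 encodes the main chymase of mouse connective tissue mast cells, a chymotrypsin-like protease. Its probe lies at chr14:56678589-56678648 of mm9, on the minus strand, 922 bases into the transcript. Its level was -0.07, 1.42 and -0.30 in the CaCl2 + IgG group, -0.03, -0.26 and 0.61 in the CaCl2 group, and 3.32, 3.38 and 1.97 in the sham group. The sham arrays lay above both other groups, and within the sham group replicate 3 was the lowest. Mcpt4 fell by 2.78 ± 0.53 (SE) in CaCl2 against sham, a 6.87-fold lower level, with an adjusted p of 0.00569 and a 95% interval of -4.0 to -1.56. Of the 9 genes it had the largest change, and the call held under all 20 alternatives tried, with an adjusted p of 0.00313 to 0.0347.

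Cpa3 encodes carboxypeptidase A3, the metalloexopeptidase of the mast cell granule. Its probe lies at chr3:20115674-20115733 of mm9, on the minus strand. Its level was -1.61, 0.07 and -1.47 in the CaCl2 + IgG group, -1.65, -1.38 and -1.32 in the CaCl2 group, and 1.31, 1.29 and -0.09 in the sham group. All sham arrays exceeded all CaCl2 arrays, whereas CaCl2 + IgG replicate 2 lay above sham replicate 3. Cpa3 fell by 2.29 ± 0.51 in CaCl2 against sham, 4.89-fold, with an adjusted p of 0.0103 and a 95% interval of -3.45 to -1.13. With slide row as a block the change was -1.52, and the adjusted p of 0.05003 lay just past the threshold.

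Cma1 encodes a further chymase-family protease of connective tissue mast cells, which in the mouse cleaves like an elastase. Its 60-base probe spans 1060 bases of mm9, at chr14:56561491-56562550 on the minus strand. Its level was -2.83, -0.96 and -3.01 in the CaCl2 + IgG group, -2.90, -3.12 and -2.56 in the CaCl2 group, and 0.08, -0.27 and -2.16 in the sham group. Sham replicate 3 lay close to the CaCl2 arrays and below CaCl2 + IgG replicate 2, but the CaCl2 and sham arrays did not overlap. Cma1 fell by 2.08 ± 0.68 in CaCl2 against sham, 4.22-fold, with an adjusted p of 0.0430. This call was lost under 10 of 20 alternatives, with adjusted p between 0.0509 and 0.242, the highest with slide row as a block, where the change was -1.11.

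Over the 9 arrays Cpa3 correlated with Cma1 at 0.966 and with Mcpt4 at 0.979, and Cma1 with Mcpt4 at 0.939. Since they moved together, the 250 bases before their annotated starts are shown, from RefSeq's mouse assembly GRCm38.p6. They lie on the minus strand at chr3:20242182-20242431 for Cpa3, chr14:55944676-55944925 for Cma1 and chr14:56062311-56062560 for Mcpt4. Capitals mark the letters GATAA, the core bound by GATA factors such as Gata2, or TTATC, the same core on the opposite strand.
Cpa3: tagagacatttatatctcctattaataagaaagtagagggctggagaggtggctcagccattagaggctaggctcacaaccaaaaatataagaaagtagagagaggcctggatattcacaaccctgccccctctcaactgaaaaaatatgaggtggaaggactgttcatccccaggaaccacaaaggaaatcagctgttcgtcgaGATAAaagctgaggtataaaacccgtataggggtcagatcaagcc
Cma1: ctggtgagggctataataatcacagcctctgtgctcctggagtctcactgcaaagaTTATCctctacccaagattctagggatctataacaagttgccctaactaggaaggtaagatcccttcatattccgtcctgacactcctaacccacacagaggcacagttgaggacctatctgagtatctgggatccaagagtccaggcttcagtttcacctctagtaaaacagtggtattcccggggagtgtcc
Mcpt4: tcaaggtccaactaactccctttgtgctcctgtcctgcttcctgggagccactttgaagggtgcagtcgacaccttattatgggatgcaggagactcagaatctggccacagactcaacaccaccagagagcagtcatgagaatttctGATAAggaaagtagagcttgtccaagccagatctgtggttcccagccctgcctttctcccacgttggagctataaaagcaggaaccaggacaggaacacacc

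GATAA begins 45 bases before the start in Cpa3 and 102 bases before it in Mcpt4, and TTATC begins 194 bases before it in Cma1. Of the 8 genes with a promoter entry, 4 held the core on either strand in this window, these 3 and Fcer1a. Among all 32851 promoters of the table, 22.6% held it. The letters CATGTG or CACATG, a core bound by Mitf, were held by Fcer1a and Hpgds, 2 of the 8 genes, and by 12.3% of all promoters. A match of letters is a description of the sequence, not a site of binding. Tpsb2 has no entry in the table.

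Tpsb2 encodes a tryptase of the mast cell granule, a trypsin-like protease that works as a tetramer. Its 2 probes gave different answers, so both are shown by their first 30 bases, in lower case with no part marked, as the array's design lists them. The dimmer lies at chr17:25504493-25504552 of mm9 on the plus strand and starts 616 bases into the transcript. The brighter lies at chr17:25504819-25504878 and starts 869 bases into it, 253 bases further along.
Tpsb2 dimmer probe: ttttcccattgtccatgatggcatgctgtg
Tpsb2 brighter probe: gggctgtgctgtctttaactcactgcttcc

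The dimmer Tpsb2 probe read -2.97, -1.66 and -3.02 in the CaCl2 + IgG group, -3.14, -3.09 and -2.87 in the CaCl2 group, and 0.30, 0.17 and -1.48 in the sham group. Every sham array exceeded every array of the other groups. With each kept probe tested on its own, it fell by 2.70 ± 0.52 in CaCl2 against sham, with an adjusted p of 0.00755, where 20% of the 32168 kept probes were called lower. The brighter Tpsb2 probe read 0.52, 1.03 and 0.75 in the CaCl2 + IgG group, 0.60, 0.70 and 1.49 in the CaCl2 group, and 1.34, 1.28 and 0.69 in the sham group. All 3 groups overlapped on it, and its change of -0.17 ± 0.28 in CaCl2 against sham had an adjusted p of 0.651 and a 95% interval of -0.82 to 0.47. Under median scaling this change was 0.30 and with slide row as a block 0.16, neither of them called. The interval does not reach the change of the dimmer probe. Since a gene was read from its brightest probe, Tpsb2 counted as not called. With the dimmer probe in its place, an alternative added after seeing the data, 8 of the 9 genes were called in this comparison.

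Over the 9 arrays the dimmer Tpsb2 probe correlated with Cpa3 at 0.991, with Mcpt4 at 0.986 and with Cma1 at 0.957. The brighter probe correlated with Cpa3 at 0.594, with Mcpt4 at 0.626 and with Cma1 at 0.658, and with the dimmer probe of its own gene at 0.582. After the group means were subtracted, these values were 0.973, 0.947 and 0.989 for the dimmer probe and 0.697, 0.800 and 0.726 for the brighter. They describe 9 arrays that share tissue, platform and scaling. Whether the probes read different transcript ends or other transcripts was not tested. In the RefSeq table Tpsb2 lies between Tpsab1, the gene of the related alpha and beta tryptase, and Tpsg1, the gamma tryptase. The Tpsab1 probe was well above background on 0 of 9 arrays.

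**Figure D2:**
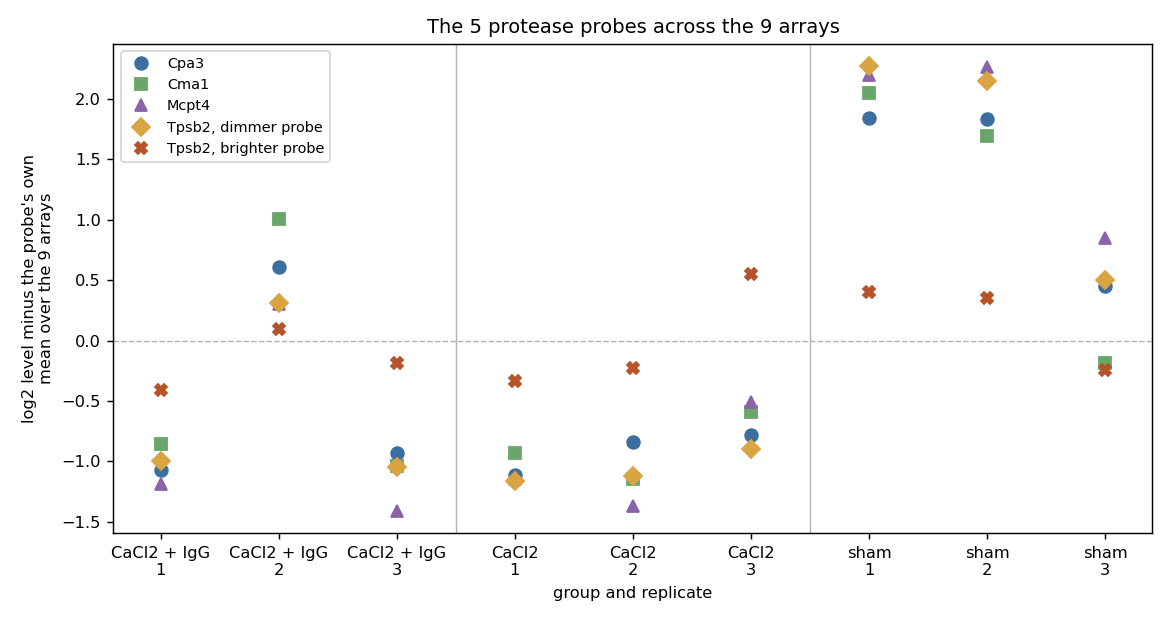
Log2 level of the 5 protease probes on each array, minus the probe's own mean over the 9 arrays (y axis), with the arrays ordered by group and replicate (x axis). The Cpa3, Cma1, Mcpt4 and dimmer Tpsb2 points move together, high in sham replicates 1 and 2 and intermediate in CaCl2 + IgG replicate 2 and sham replicate 3, while the brighter Tpsb2 probe stays within a narrower band.

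Kit, the receptor tyrosine kinase for stem cell factor, is also expressed by other cells, among them interstitial cells. Its probe, at chr5:76052394-76052453 of mm9, read -0.22, 0.13 and -0.22 in the CaCl2 + IgG group, -0.08, 0.21 and 0.37 in the CaCl2 group, and 1.68, 1.73 and 1.17 in the sham group. All 3 sham arrays lay above all 6 others, and sham replicate 3 was the lowest of them. Kit fell by 1.36 ± 0.20 in CaCl2 against sham, 2.57-fold, with an adjusted p of 0.00206 and a 95% interval of -1.82 to -0.90. Only median scaling, of the 20 alternatives tried, ended this call, with a change of -0.89 and an adjusted p of 0.0562.

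Fcer1a, the chain of the IgE receptor that binds IgE, is carried in the mouse by mast cells and basophils. Its probe lies at chr1:175151438-175151497 of mm9, on the minus strand. It read -5.00, -2.32 and -4.16 in the CaCl2 + IgG group, -4.45, -4.32 and -4.01 in the CaCl2 group, and -1.66, -1.69 and -3.20 in the sham group. The CaCl2 arrays lay below all sham arrays, and CaCl2 + IgG replicate 2, the 1 array of its group well above background, lay between the sham arrays. Fcer1a fell by 2.08 ± 0.66 in CaCl2 against sham, with an adjusted p of 0.0399. The call was lost under 9 of 19 alternatives, and under normexp background correction the change was -1.07. Ms4a2, which encodes the beta chain of the same receptor, was well above background on 0 of 9 arrays.

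Kitl encodes stem cell factor, which is made by fibroblasts, endothelium and smooth muscle and not only by mast cells. Its probe, at chr10:99558962-99559021 of mm9, read -1.03, -0.92 and -0.02 in the CaCl2 + IgG group, -0.92, -0.64 and -0.72 in the CaCl2 group, and 0.48, 0.24 and 0.45 in the sham group. Every sham array lay above every other array, and sham replicate 3 was level with the other sham arrays. Kitl fell by 1.15 ± 0.26 in CaCl2 against sham, 2.22-fold, with an adjusted p of 0.0107. With slide row as a block its adjusted p was 0.0674, and under median scaling the change was -0.68. After the group means were subtracted, Kitl correlated with Cpa3 at -0.27, with Cma1 at -0.36 and with Mcpt4 at -0.41, so it did not share the array-to-array pattern of the proteases.

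Hdc, histidine decarboxylase, makes histamine in mast cells, basophils and some other myeloid cells. Its probe, at chr2:126419516-126419575 of mm9, read -0.65, -0.28 and -1.18 in the CaCl2 + IgG group, -1.35, -1.33 and 0.09 in the CaCl2 group, and -0.10, -0.53 and -0.74 in the sham group. CaCl2 replicate 3 was the highest of all 9 arrays, far above the other CaCl2 arrays, and the groups overlapped. The change in CaCl2 against sham was -0.41 ± 0.41, with an adjusted p of 0.459 and a 95% interval of -1.35 to 0.53. Under median scaling it was 0.062, also not called.

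Hpgds, hematopoietic prostaglandin D synthase, makes prostaglandin D2 in mast cells and also in macrophages and some T cells. Its probe, at chr6:65070081-65073609 of mm9, spans 3529 bases on the minus strand. It read -1.16, -1.82 and -1.90 in the CaCl2 + IgG group, -1.81, -1.43 and -2.20 in the CaCl2 group, and -3.09, -2.92 and -4.59 in the sham group. It was the 1 gene of the 9 whose sham arrays lay below all others. The probe was well above background on 2 of the 3 sham arrays, and it passed the filter on dim probes through the CaCl2-treated groups, where it is high, so its call alone is no support for a difference. Hpgds rose by 1.72 ± 0.44 in CaCl2 against sham, 3.30-fold, with an adjusted p of 0.0182. With no filter on dim probes the change was also 1.72, with an adjusted p of 0.0210. Under normexp background correction, which compresses dim signals, the rise was 0.55 and the adjusted p 0.0381. The call was lost without CaCl2 replicate 1 (adjusted p = 0.0525) or without CaCl2 replicate 2 (0.0561).

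Injected IgG was compared next, in CaCl2-treated aorta with and without it. None of the 9 genes was called in CaCl2 + IgG against CaCl2 with limma, beside 0% of all 16508 genes. At an unadjusted p under 0.05 there were 0 of the 9 genes and 243 of all genes. The arrays of the 2 groups overlapped in all 9 genes, beside 5.02% of all genes without overlap. The log2 changes ran from -0.27 ± 0.20 for Kit to 0.59 ± 0.68 for Cma1, with a median of 0.19, against -0.02 over all genes. The 95% intervals were wide, at -0.97 to 1.46 for Mcpt4, -0.71 to 1.61 for Cpa3, -1.08 to 1.95 for Fcer1a and -0.73 to 0.19 for Kit. For Cma1 the interval was -0.96 to 2.14. In Mcpt4, Cpa3 and Cma1 a rise of 1 on the log2 scale therefore could not be told from none.

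The CaCl2 + IgG arrays were not alike among themselves in the protease genes. The mean level of the Cpa3, Cma1, Mcpt4 and dimmer Tpsb2 probes was -1.87, -0.28 and -1.95 on CaCl2 + IgG replicates 1, 2 and 3, -1.93, -1.96 and -1.54 in the CaCl2 group, and 1.25, 1.14 and -0.44 in the sham group. Replicate 2 of the CaCl2 + IgG group and replicate 3 of the sham group thus met between the levels of the other arrays. In row 1 of the slide, CaCl2 + IgG replicate 1 differed from the mean of the 3 CaCl2 arrays by -0.16 in Cpa3, -0.18 in Mcpt4 and 0.03 in Cma1, a comparison with 1 array on one side and no test.

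**Figure D3:**
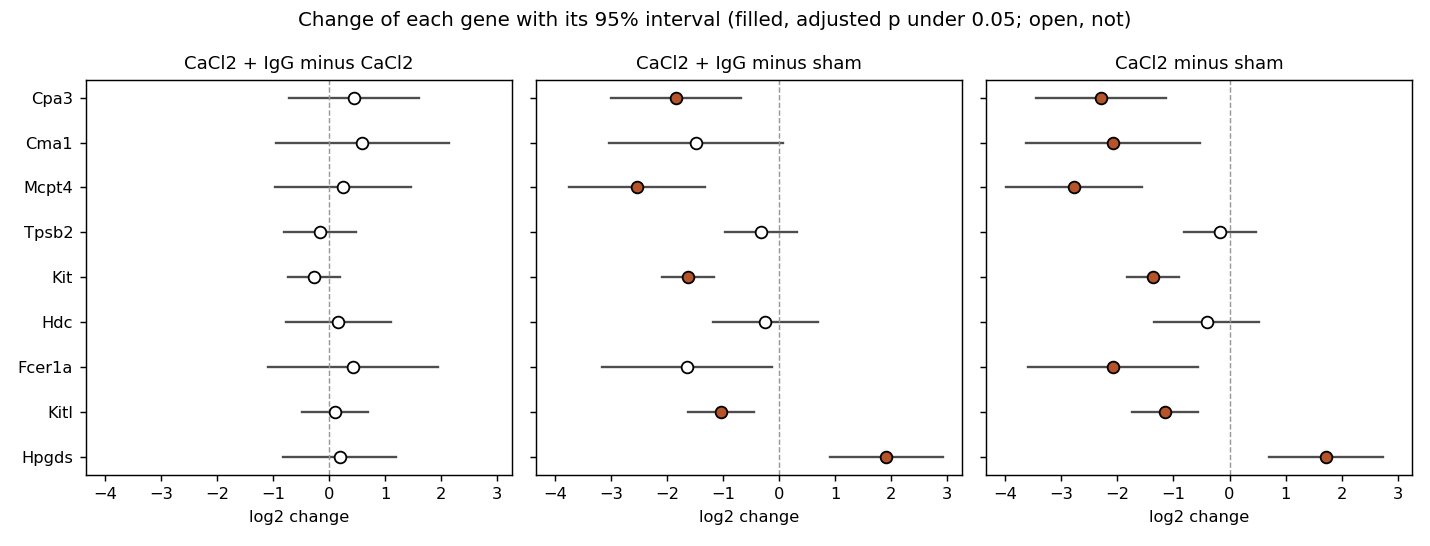
Log2 change of each of the 9 genes (x axis) with its 95% interval in CaCl2 + IgG minus CaCl2, CaCl2 + IgG minus sham and CaCl2 minus sham, with filled points for an adjusted p under 0.05. No point is filled in the first panel, 5 are in the second and 7 in the third, and Hpgds is the filled point to the right of 0. Tpsb2 is drawn from its brighter probe.

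Against sham aorta, the CaCl2 + IgG group had 4 genes called lower, Mcpt4, Cpa3, Kit and Kitl, beside 14.2% of all genes. Hpgds was called higher, beside 14.7% of all genes, and Cma1, Tpsb2, Hdc and Fcer1a were not called. The arrays did not overlap in 4 of the 9 genes, beside 44.3% of all genes, and the median change was -1.48 against -0.10 over all genes. This comparison shares its sham arrays with the one of CaCl2 against sham and is no separate evidence.

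Kit fell by 1.63 ± 0.20 in CaCl2 + IgG against sham (adjusted p = 0.00110), and Mcpt4 fell by 2.54 ± 0.53 (adjusted p = 0.00945). Cpa3 fell by 1.84 ± 0.51 (adjusted p = 0.0277) and Kitl fell by 1.04 ± 0.26 (adjusted p = 0.0180). Hpgds rose by 1.91 ± 0.44 (adjusted p = 0.0142), while the Cma1 change of -1.48 ± 0.68 had an adjusted p of 0.134 and the Fcer1a change of -1.64 ± 0.66 an adjusted p of 0.0965. The dimmer Tpsb2 probe fell by 2.22 ± 0.52 with an adjusted p of 0.0192 over all kept probes, of which 11.7% were called lower.

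The calls for CaCl2 + IgG against sham rested in part on single arrays. Without CaCl2 + IgG replicate 2, Cma1 (-2.14, adjusted p = 0.0474) and Fcer1a (-2.40, adjusted p = 0.0168) were also called and Kitl (-0.91, adjusted p = 0.0661) was not, for 6 of 9. Without sham replicate 3 the count was 5 of 9, with Cma1 called (-2.17, adjusted p = 0.0381) and Kitl not (-1.01, adjusted p = 0.0561). The count was 4 of 9 without CaCl2 + IgG replicate 3, where Cpa3 had an adjusted p of 0.0540, and 3 of 9 without sham replicate 1 or without CaCl2 + IgG replicate 1. Within row 2 of slide 1, CaCl2 + IgG replicates 2 and 3 differed from sham replicates 1 and 2 by -2.79 in Mcpt4, -2.0 in Cpa3, -1.75 in Kit and -0.83 in Kitl, with no test.

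The genes whose pattern over the 9 arrays was most like the mean of Cpa3, Cma1, Mcpt4 and Tpsb2 (brighter probe) were Cma2, Mcpt-ps1, Tpsg1, Ipo5 and Edrf1. Their Pearson correlations were 0.985, 0.958, 0.933, 0.932 and 0.926 among 16494 genes, over arrays that share the group differences. Cma2, a chymase gene close to Cma1, read -0.66, 0.49 and -1.05 in the CaCl2 + IgG group, -0.72, -0.88 and -0.15 in the CaCl2 group, and 2.27, 2.19 and 0.93 in the sham group. Its sham arrays lay above all others, with CaCl2 + IgG replicate 2 next. With the dimmer Tpsb2 probe in place of the brighter, Cma2, Mcpt-ps1 and Tpsg1 stayed the first 3, at 0.988, 0.962 and 0.936. After the group means were subtracted, the most similar genes were Cma2 at 0.984, Lrrc73 at 0.972, Smim24 at 0.970, Tgs1 at 0.969 and Sap30 at 0.964. That order depended on the probe: with the dimmer Tpsb2 probe Lrrc73 came first at 0.981, followed by Cma2 at 0.977, Tor4a at 0.973, Tgs1 at 0.972 and Nuf2 at 0.969. In the RefSeq table Cma1, Mcpt-ps1 and Cma2 lie beside each other on chromosome 14, the annotations of Mcpt-ps1 and Cma2 overlap, and Mcpt4 lies between Mcpt2 and Mcpt8 on the same chromosome. Whether related transcripts bind each other's probes was not tested.

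Of 24 other mast cell genes listed, 14 were tested, of which 4 rose, 2 fell and 8 were not called in CaCl2 against sham. These counts stand beside 17.4% of all genes called higher and 19% called lower, and the median change was 0.51 against -0.08 over all genes. Cma2 fell by 2.38 ± 0.48 (adjusted p = 0.00685) and Gata2, a transcription factor of mast cells and endothelium, fell by 0.71 ± 0.21 (adjusted p = 0.0334), with a change of -0.24 and no call under median scaling. Il1rl1, the receptor for interleukin-33, rose by 1.24 ± 0.26 (adjusted p = 0.00800), and Adora3, an adenosine receptor, rose by 1.64 ± 0.40 (adjusted p = 0.0157). Rgs13, a regulator of G-protein signalling, was not well above background on any sham array and was at least 1.88-fold higher in CaCl2 (adjusted p = 0.0271). Rgs13 passed the filter on dim probes through CaCl2-treated arrays, where it is high, so its call alone is no support for a difference. That call was lost under 8 of 19 alternatives. Tpsg1, the gamma tryptase, had a change of -2.21 ± 0.77 and an adjusted p of 0.0535. Without sham replicate 3, 3 of the 6 calls held, without CaCl2 replicate 3 it was 2 of the 6, and under normexp correction the Rgs13 change was 0.08, not called.

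Mcpt1 and Mcpt9, granule proteases of the chymase family, passed the background level well on 0 and 1 of the 9 arrays, and Mrgprb2, a receptor of connective tissue mast cells for basic peptides, on 1. For the defining basophil genes Mcpt8 and Cd200r3 that number was 0 of 9 arrays. Of 7 basophil genes, 4 were tested, and 3 were called higher in CaCl2 than in sham, beside 17.4% of all genes. Among them were Il3ra (1.58 ± 0.37, adjusted p = 0.0129) and Il6ra (0.76 ± 0.23, adjusted p = 0.0329), which other leukocytes also carry. The third, Itga2, was not well above background on any sham array, so no fold is given, and under normexp correction its change was -0.13, not called. Itga2 passed the filter on dim probes through the CaCl2 group, where it is high, so its call alone is no support for a difference. Of 10 eosinophil genes, 7 were tested and 3 rose, beside that same share of all genes. Siglecf rose by 3.20 ± 0.49, Prg2 by 2.85 ± 0.67 and Ear2 by 2.28 ± 0.77, with adjusted p of 0.00241, 0.0129 and 0.0476. Siglecf and Prg2 were each well above background on 1 of the 3 sham arrays. Both passed the filter on dim probes through the CaCl2-treated groups, where they are high, so their calls alone are no support for a difference. The Ear2 call was lost under 12 of 20 alternatives, with an adjusted p of up to 0.143, and under normexp correction Prg2 had a change of 0.48 and was not called.

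Many signalling genes that act below the IgE receptor and Kit were higher in CaCl2 than in sham. Of 23 listed, 21 were tested, and 13 rose, 0 fell and 8 were not called in CaCl2 against sham. These counts stand beside 17.4% of all genes called higher and 19% called lower. The median change was 1.64, against -0.08 over all genes. Btk, a kinase of the Tec family, rose by 4.0 ± 0.26 (adjusted p = 0.000167), and the adaptor Lat2 rose by 3.91 ± 0.62 (adjusted p = 0.00265). Vav1, an exchange factor, rose by 3.05 ± 0.26 (adjusted p = 0.000365), and the Src-family kinase Lyn rose by 2.79 ± 0.36 (adjusted p = 0.00121). Fcer1g, the signalling chain that Fcer1a shares with IgG receptors, read 5.44, 5.44 and 5.59 in the CaCl2 + IgG group, 5.47, 5.25 and 5.46 in the CaCl2 group, and 3.69, 3.86 and 2.02 in the sham group. It rose by 2.20 ± 0.42 in CaCl2 against sham (adjusted p = 0.00580), with no overlap. Without sham replicate 3, 12 of the 13 calls held. These signalling genes are used by macrophages and other leukocytes as well. Of 10 macrophage genes tested, 7 rose and 1 fell, beside those same shares of all genes. The summed level of that list, as log2 of the sum, was 8.12 to 8.55 in CaCl2 + IgG, 7.94 to 8.27 in CaCl2 and 7.82 to 7.83 in sham. The gene that fell was Itgam (-1.35 ± 0.39, adjusted p = 0.0291), whose bright probe carries much of that sum in sham (7.25 to 7.65), and the median change of the list was 2.34. Its part in the rise of the signalling genes was not tested.

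Most tested genes of a list of cytokines and receptors for mast cell growth and activation rose. The list leaves out Kit and Kitl, which were called lower, with changes of -1.36 and -1.15 in CaCl2 against sham. Which cells the rises came from was not tested. Of 16 listed, 12 were tested, and 9 rose, 0 fell and 3 were not called in CaCl2 against sham. These counts stand beside 17.4% of all genes called higher and 19% called lower. Csf2rb2 and Csf2rb, close paralogues that encode the beta chains of the interleukin-3 and related receptors, rose by 2.99 ± 0.31 and 2.91 ± 0.38 (adjusted p = 0.000659 and 0.00126). The chemokine Cxcl12 rose by 2.23 ± 0.19 (adjusted p = 0.000344). Csf2, the growth factor GM-CSF, was not well above background on any sham array and was at least 1.90-fold higher in CaCl2 (adjusted p = 0.000892), but under normexp correction its change was 0.22 and not called. Csf2 passed the filter on dim probes through the CaCl2 group, where it is high, so its call alone is no support for a difference. Interleukins 3, 4, 9 and 13 were each measured by 1 probe, which was well above background on 0, 2, 1 and 1 of the 9 arrays.

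Genes of mast cell mediators are counted beside the same shares of all genes, 17.4% higher and 19% lower. Of 5 histamine receptor and breakdown genes tested of 8, 2 fell in CaCl2 against sham, Hrh4 by 2.22 ± 0.40 (adjusted p = 0.00450) and Hrh3 by 1.82 ± 0.42 (adjusted p = 0.0122). The probe of Hrh3 was well above background on 1 of 3 CaCl2 arrays. Hrh3 passed the filter on dim probes through the sham group, where it is high, so its call alone is no support for a difference. Of 10 genes of serglycin and heparin synthesis tested of 11, 2 rose and 3 fell. Srgn, the core protein of serglycin, rose by 1.43 ± 0.25 (adjusted p = 0.00378), while the heparan sulfate enzymes Hs2st1, Hs3st1 and Ext2 fell by 1.1 ± 0.35, 0.94 ± 0.23 and 0.85 ± 0.17 (adjusted p = 0.0384, 0.0151 and 0.00749). Serglycin is made by most leukocytes. Under median scaling, and with slide row as a block, 2 of these 5 calls held.

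Of 9 genes of prostaglandin D2 synthesis and its receptors tested of 12, beside Hpgds, 2 rose and 2 fell, against those same shares. Ptgs2, the inducible cyclooxygenase, rose by 1.82 ± 0.53 and the nuclear receptor Pparg rose by 0.83 ± 0.26 (adjusted p = 0.0298 and 0.0389). Cbr2, a carbonyl reductase, fell by 2.07 ± 0.23 and the phospholipase Pla2g5 fell by 1.56 ± 0.28 (adjusted p = 0.000796 and 0.00462). Without sham replicate 3, 2 of these 4 calls held. The receptors Ptgdr and Ptgdr2 were well above background on 0 of 9 arrays.

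**Figure D4:**
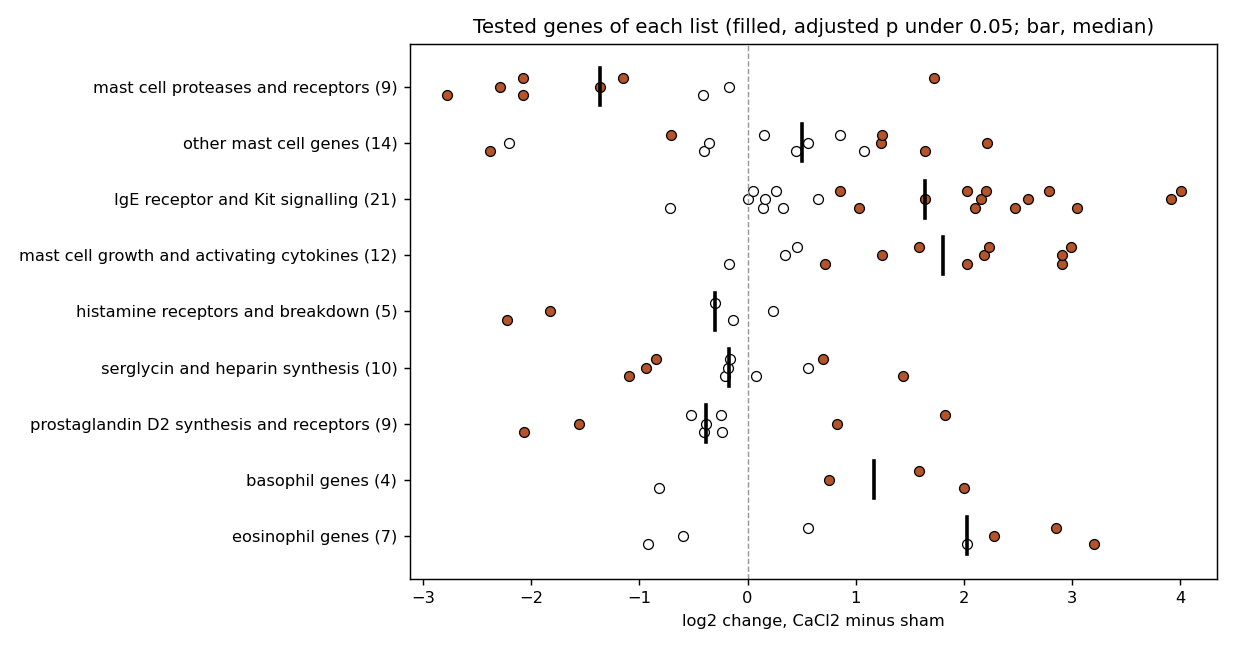
Log2 change in CaCl2 minus sham (x axis) of each tested gene in the 9 mast cell proteases and receptors and in 8 lists of related genes, with the number tested in parentheses, filled points for an adjusted p under 0.05 and a bar at the median. The 9 genes have a median of -1.36, while the signalling list, with 13 of 21 genes filled, has all of its filled points above 0.

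Transcripts of other cell types in CaCl2 against sham are counted beside 17.4% of all genes called higher and 19% called lower. Of 10 smooth muscle genes, 10 fell, and the summed level of the list was 9.82 to 10.26 in CaCl2 + IgG, 9.67 to 10.37 in CaCl2 and 11.39 to 11.59 in sham. Of 9 white fat genes tested, 3 fell, with a summed level of 5.93 to 7.04 in CaCl2 + IgG, 6.31 to 7.50 in CaCl2 and 7.71 to 8.37 in sham. Of the tested genes of the other lists, 5 of 10 for fibroblasts rose and 0 fell, 4 of 10 for neutrophils rose and 0 fell, and 6 of 9 for T and NK cells rose and 1 fell. For endothelium 2 of 10 rose and 2 fell, for nerve 4 of 7 rose and 1 fell, for skeletal muscle 1 of 5 rose and 1 fell, and for mesothelium 1 of 2 rose and 0 fell. The counts for endothelium and skeletal muscle lay near the shares over all genes. The neutrophil and mesothelium genes that rose, and most of the T and NK cell genes that rose, passed the filter on dim probes through CaCl2-treated arrays. They are high there, so these counts alone are no support for a difference. The part of these shifts in the lower level of the mast cell genes was not tested. In CaCl2 + IgG against CaCl2, 0 of the 162 genes of all these lists were called with limma, and 2 of them, Csf2 and Il9r, had an unadjusted p under 0.05.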

How the data were processed

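Total RNA was amplified and labelled with Cy3 for 1-colour Agilent arrays, per the labels' protocols. Each deposited scanner file lists linear spot intensity, background-subtracted by Feature Extraction 10.7.1.1 per the file headers. Version 9.5.1.1 stands in the submitters' processing notes. The authors' deposited series table holds quantile-normalized intensity values, judged from columns that share 1 median, and served as an alternative.

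The processed signal was put on the log2 scale from the deposited intensity, less the array's own 75th percentile over its non-control spots. Probes well above background on every array of at least 1 group were kept. Among those kept through the CaCl2-treated groups were Hpgds, Btk, Lat2, Lyn, Lcp2, Prg2 and Siglecf, and Csf2 and Itga2 were kept through the CaCl2 group. Rgs13 was kept through CaCl2-treated arrays and Hrh3 through the sham group. Of 55681 probes, 27235 were named by accession and 4146 by symbol through RefSeq's GRCm38.p6 gene list, while 1597 kept the files' name only, and 22703 had no symbol. Clone and locus identifiers were left unnamed, a choice made after seeing the counts. Each gene was read from its brightest probe. The 9 arrays entered 1 fit in limma 3.58.1 (lmFit, eBayes; R 4.3.3, and the data.table package, version 1.17.8), with 3 groups, 6 residual degrees of freedom and no covariate, and Benjamini-Hochberg adjustment over all genes at 0.05, two-sided. For a gene not well above background anywhere in a group, the fold is a bound, taken per array against its own signal or the lowest signal of a detected probe, whichever was higher.

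The fit was tested on simulated data for CaCl2 against sham. It recovered 43 of 107 planted changes of log2 size 1 (40.2%) and 81 of 93 of size 2 (87.1%), with 13 false calls among 16503 genes. A change of size 1 can thus go uncalled. Changes were planted in these genes only, far fewer than the 6004 called in the data, so the shares recovered need not hold there. Columns not mapped to a sample numbered 0. The 3 arrays per group limit the precision.

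The members and gene lists were chosen with earlier results of these data known. All 9 members were named, and of each list up to 4 called genes by largest change. Gata2, Fcer1g, Lcp2 and Tpsg1, the genes well above background on few arrays, and Il9r were added after their values were seen. Of the called genes of the other cell type lists, only counts are given. Alternatives covered scaling, background correction, the dim-probe filter, the probe rule, the groups in the fit, slide, slide row, replicate number and leaving out each array. Probe coordinates are those of the array's mm9 design, and exon annotation of that build was not used here.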

Additional observations from a re-analysis of the deposited data

How the results depend on the processing

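In CaCl2 against sham, 7 of the 9 genes were called, against 4 under median scaling and 3 with slide row as a block, and 4 to 7 when 1 array was left out. Without CaCl2 replicate 1 it was 4 and without CaCl2 replicate 2 also 4. In CaCl2 + IgG against sham, 5 were called, against 3 to 6 when 1 array was left out, the lowest without sham replicate 1 or without CaCl2 + IgG replicate 1. In CaCl2 + IgG against CaCl2 the count was 0 under every alternative run, for members, and at most 2 over all genes, without CaCl2 + IgG replicate 1. Over single members, 153 of 179 values of CaCl2 against sham kept their side of the threshold, 24 lost the call and 2 gained it; both of these were Tpsb2 read with or from its dimmer probe. In CaCl2 + IgG against sham, 161 of 179 did, 11 lost the call and 7 gained it. Values that were never called changed sign 3 times in CaCl2 against sham, Tpsb2 at 0.30 under median scaling and 0.16 with slide row as a block, and Hdc at 0.062 under median scaling, and 22 times in CaCl2 + IgG against CaCl2. The 1 called value that reversed was Itga2, a dim gene that is no member, at -0.13 under normexp correction. Scaling set the balance of calls over all genes: 47.7% of called genes were higher in CaCl2 against sham, 77.2% under median scaling, where the median of all genes moved to 0.39, and 32.6% without a filter on dim probes. Calls over all genes numbered 6004, against 3382 with slide row as a block, 3898 with slide as a block and 3930 without sham replicate 3. In CaCl2 + IgG against sham they numbered 4763, against 2997 under median scaling and 2985 without CaCl2 + IgG replicate 2. The cause of these shifts was not tested. With the replicate block the counts were 7, 0 and 5 of the 9 genes and 5769 over all genes in CaCl2 against sham. The replicate numbers did not pair the samples, with correlations of -0.20 to 0.23 between same-numbered arrays. Depth is limited by signal over background: Fcer1a and Hpgds were near it in some groups.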
